A study of Saccharomyces cerevisiae W303 with 16 samples.

Results

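Translation of 4526 yeast transcripts was compared in *sup45-ts* against *SUP45* cells after a shift to 37°C, as the number of ribosome footprints on each coding sequence (CDS) set beside the amount of its mRNA. The members are the transcripts with at least 100 CDS footprints in both strains, out of 6575 in the deposited footprint tables. They held 98.6% of the CDS footprints of *sup45-ts* and 98.95% of those of *SUP45*. A further 485 transcripts were under 100 footprints in *sup45-ts* only, 121 in *SUP45* only and 1443 in both. At the edge of the threshold, *YGR137W* was a member with 1000 footprints in *sup45-ts* and 102 in *SUP45*, and *HIS3* was not, with 714 and 71.

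The tested strain carries *sup45-2*, a temperature-sensitive allele of the gene for eRF1 (here *sup45-ts*), and was made from the wild-type strain by pop-in/pop-out replacement. Both strains are *MATa* cells of the W303 background and share 6 marker alleles, *ade2-1*, *can1-100*, *his3-11,15*, *trp1-1*, *ura3-1* and a frameshift allele of *LEU2*. Cells were grown in YPD at 25°C and moved to 37°C for 30 min, or kept at 25°C as a mock shift, with 2 replicates of ribosome profiling and 2 of RNA-Seq in each of the 4 groups (*sup45-ts* and *SUP45*, each at 37°C and 25°C). Each strain is a single isolate, and no source used here says that the 2 replicates came from separate cultures, so p-values measure only the spread between these libraries. A point allele cannot be checked from the level of its transcript.

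The release factor eRF1 recognises a stop codon in the A-site of the ribosome and, with the GTPase eRF3 (*SUP35*), frees the finished protein, after which Rli1 helps split the ribosome. When eRF1 is not active, ribosomes wait at stop codons or read into the 3’-UTR, and fewer are free to start again on other mRNAs. The number of footprints on a CDS depends on how much mRNA there is, on how often ribosomes start and on how fast they move, so footprints per mRNA is a measure of ribosome load and not of protein output.

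The footprint tables hold 1 value per transcript and strain, because the replicates had been combined. They give 5650894 CDS footprints for *sup45-ts* and 16619436 for *SUP45* at 37°C, and 21528362 and 17262357 at 25°C. The 3’-UTR held 12.6% of the footprints counted in *sup45-ts* and 0.0613% in *SUP45* at 37°C. The CDS RPKM of the tables is scaled to CDS and 3’-UTR footprints together, so that scaling to CDS footprints alone raises every log2 difference by the same 0.19. All changes in footprints below are therefore given relative to the median over the members. RNA-Seq libraries held 107324550 to 153654244 expected counts.

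At 37°C the mRNA of 1607 of 4523 members tested was higher in *sup45-ts* (35.5%) and that of 2033 was lower (44.9%), by edgeR’s quasi-likelihood test at an adjusted p of 0.05. In bulk cultures, fewer cells with an mRNA and less of it per cell cannot be told apart. CDS RPKM, which has no replicates and so no test, was past 2-fold higher for 731 of 4526 members (16.2%) and past 2-fold lower for 617 (13.6%). The log2 differences in CDS RPKM had an SD of 1.05 over the members and those in mRNA an SD of 0.89, with Spearman’s ρ of 0.807 between them over 4518 members with an FPKM of at least 1 in all 4 RNA-Seq libraries. Members are not independent replicates and come from the same libraries, so this is a description.

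Among the 444 members whose mRNA rose by 2-fold or more in *sup45-ts*, 354 (79.7%) also had a CDS RPKM past 2-fold higher and 2 had one past 2-fold lower. Among the 491 whose mRNA fell by 2-fold or more, 336 (68.4%) had a CDS RPKM past 2-fold lower and 1 had one past 2-fold higher. These 3 exceptions were *ADH2*, *COS4* and *YDR433W*. *ADH2* (the glucose-repressed alcohol dehydrogenase) and *COS4* have close copies elsewhere in the genome, and *YDR433W* had an FPKM between 4.28 and 15.5, so their values are uncertain.

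The members with the largest differences in CDS RPKM had mRNA differences in the same direction. *CIT2*, the peroxisomal citrate synthase of the glyoxylate cycle, had 12536 CDS footprints in *sup45-ts* against 366 in *SUP45*. Its mRNA stood at 1107 and 1029 FPKM in the *sup45-ts* libraries, against 24.2 and 29.6 FPKM in the *SUP45* libraries. *CIT2* mRNA rose by 5.32 on the log2 scale (SE 0.22, adjusted p = 3.88e-08 from edgeR). *BTN2*, which sorts misfolded proteins, had 30376 footprints in *sup45-ts* and 2617 in *SUP45*, with 4448 and 4218 FPKM against 162 and 154 FPKM. In both genes the libraries of the strains were far apart. *ICY2*, *SPO24* and *EEB1* (a medium-chain fatty acid ester synthase) complete the 5 highest, with 11299, 15883 and 2442 footprints in *sup45-ts* against 548, 976 and 225 in *SUP45*. Of these 5, *CIT2* and *EEB1* also rose over 2-fold in footprints per mRNA, relative to the median change over the members, at 1.06 and 1.25 on the log2 scale. With 1 RNA-Seq library left out *CIT2* ran from 0.94 to 1.18.

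At the other end, *PHO84*, the high-affinity phosphate transporter, had 266 footprints in *sup45-ts* and 11585 in *SUP45*, with 22.6 and 18.6 FPKM against 275 and 319 FPKM. *MET17*, which fixes sulfide into homocysteine, had 705 and 28954 footprints, with 78.9 and 73.8 FPKM against 796 and 810 FPKM. *MET5*, a subunit of sulfite reductase, the amino acid permease *GAP1* and *PDI1*, the protein disulfide isomerase of the endoplasmic reticulum (ER), had 219, 359 and 3524 footprints in *sup45-ts* against 4898, 7917 and 73318 in *SUP45*. The mRNAs of all 5 fell, by 3.84 (*PHO84*), 3.39 (*MET17*), 1.69 (*MET5*), 2.74 (*GAP1*) and 2.00 (*PDI1*) on the log2 scale, each with an adjusted p of at most 6.63e-07 from edgeR. *MET5* and *PDI1* also had fewer footprints per mRNA, by more than 2-fold (-1.51 and -1.09), while the other 3 were within 2-fold of the median.

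**Figure D1:**
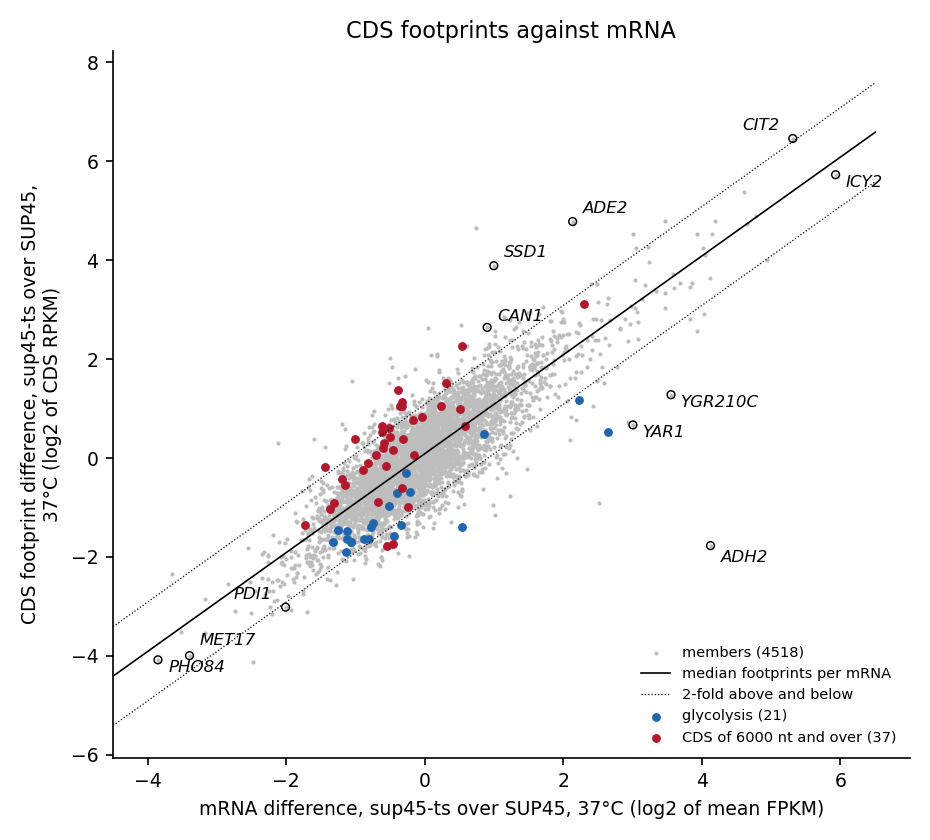
The log2 difference in CDS RPKM (vertical) against that in mean FPKM (horizontal) between *sup45-ts* and *SUP45* at 37°C, 1 point per member. The solid line is the median of footprints per mRNA and the dotted lines lie 2-fold above and below it. Blue points are the 21 glycolytic genes, all under the solid line, and red points the 37 members with a CDS of 6000 nt or more, of which 31 lie above it.

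The difference in footprints per mRNA is the log2 difference in CDS RPKM minus that in mean FPKM, relative to its median over 4518 members (0.09 before centring). A value of 1 means that a *sup45-ts* mRNA carried 2-fold more footprints relative to the others than the same mRNA in *SUP45*. Of the members, 143 were past 2-fold higher in *sup45-ts* (3.17%) and 183 past 2-fold lower (4.05%), and the other 4192 (92.8%) were within 2-fold. For 79 of the 143 and 98 of the 183, the 95% counting interval of the footprint ratio lay past 2-fold too. That interval (exact binomial) covers footprint counting only. With each RNA-Seq library left out in turn, 118 of the 143 and 138 of the 183 stayed past 2-fold in all 4 cases.

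The same strains at 25°C share no library with the comparison at 37°C. Of 4261 members that also had 100 footprints in both strains at 25°C, 118 were past 2-fold higher (2.77%) and 165 past 2-fold lower (3.87%) at 37°C. At 25°C 1 member was past 2-fold higher, *ARR1* at 1.01 (0.0235%), and 1 past 2-fold lower, *YDR433W* at -1.19 (0.0235%). No member was past 2-fold in the same direction at both temperatures. The SD over these members was 0.55 at 37°C and 0.18 at 25°C, and ρ between the temperatures was 0.280. The *sup45-ts* table at 37°C is the shallowest of the 4. Whether the difference in SD itself exceeds the spread between cultures could not be tested, since replicates were combined.

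**Figure D2:**
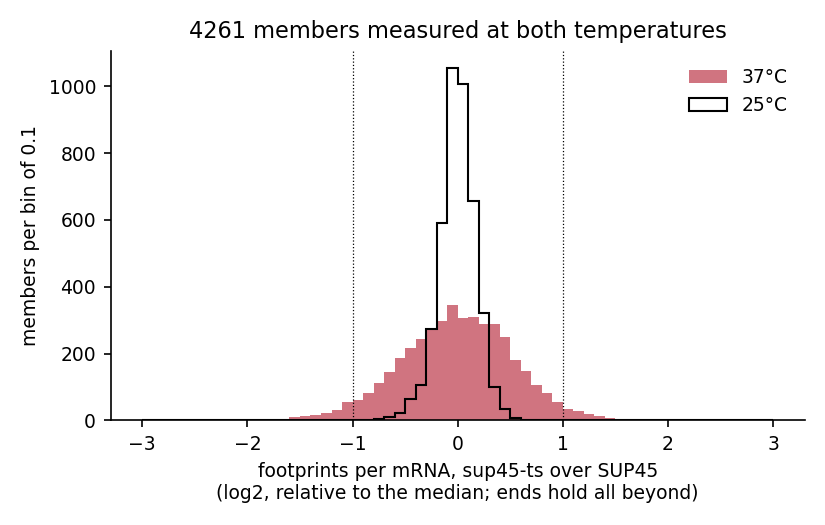
Histogram of the log2 difference in footprints per mRNA between *sup45-ts* and *SUP45*, relative to the median, for the 4261 members measured at both temperatures. The filled bars (37°C, SD 0.55) are wider than the outline (25°C, SD 0.18), which hardly reaches the dotted lines at 2-fold.

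*SSD1* (YDR293C), an RNA-binding protein of cell wall mRNAs, had 17884 CDS footprints in *sup45-ts* and 3105 in *SUP45*, or CDS RPKM of 747 and 50.4. Its mRNA stood at 182 and 162 FPKM in the *sup45-ts* libraries, against 85.6 and 86.5 FPKM in the *SUP45* libraries. The mRNA libraries did not overlap, and *SSD1* mRNA rose by 1.00 on the log2 scale (SE 0.08, adjusted p = 2.85e-06 from edgeR). Its relative difference in footprints per mRNA was 2.81 (counting interval 2.75 to 2.86), which is 6.99-fold, and 0.10 at 25°C. W303 strains are known to carry *ssd1-d*, an allele of *SSD1* with a premature stop codon. That allele is not listed in the strain genotypes here.

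*ADE2* and *CAN1* (adenine synthesis and arginine uptake) bear the premature stop codon alleles *ade2-1* and *can1-100* in both strains. *ADE2* had 1829 CDS footprints in *sup45-ts* and 171 in *SUP45*, with mRNA at 197 and 186 FPKM against 39.8 and 47.5 FPKM. Footprints per mRNA were 2.56 higher on the relative log2 scale (2.33 to 2.80). For *CAN1*, with 274 footprints in *sup45-ts* and 113 in *SUP45*, they were 1.65 higher (1.33 to 1.98). The paper reports readthrough of the premature stop codons of both alleles in the mutant strain after the shift. CDS RPKM divides by the whole CDS except its first 15 and last 33 nt, whose footprints are not counted. The values here therefore take footprints before and after those stop codons together. *URA3*, whose *ura3-1* allele is a missense change, had 778 and 1323 footprints and a relative difference of -0.08 (-0.21 to 0.05). These 3 were the members among the 6 marker genes, and neither *ADE2* nor *CAN1* had 100 footprints in both strains at 25°C.

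The other 3 marker genes had under 100 footprints in *SUP45* and are no members. *TRP1*, whose *trp1-1* allele is a premature stop codon, had 1142 footprints in *sup45-ts* and 18 in *SUP45*, with 70.2 and 70.2 FPKM against 24.4 and 29.6 FPKM. Its ratio of footprints per mRNA, *sup45-ts* over *SUP45*, was 59.1-fold the ratio of the median member (counting interval 37.2 to 100.1). For *HIS3* (*his3-11,15*), with 714 footprints in *sup45-ts* and 71 in *SUP45*, the ratio was 4.60-fold that of the median member (3.601 to 5.96). For *LEU2*, with 587 and 73, it was 4.36-fold (3.41 to 5.64). The alleles of both are frameshifts. The mRNA of all 6 marker genes rose in *sup45-ts* by edgeR’s test, from 0.60 (*URA3*) to 2.42 (*HIS3*) on the log2 scale, with adjusted p of at most 1.71e-05. The counts take only footprints in the frame of the CDS, and RPKM divides them by the length of the counted part. For alleles with a premature stop codon or a frameshift, a higher value can therefore hold more footprints past that site as well as a higher load. The parts were not separated. The alleles, the changes in footprints and those in mRNA belong to both strains or to the same libraries, and the part of each was not tested.

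Of the 143 members past 2-fold higher, 14 had a CDS under 300 nt and 44 one of 2400 nt and over. These length classes held 99 and 800 of all 4518 members. *ATP18*, a subunit of the mitochondrial ATP synthase with a CDS of 177 nt, had 472 footprints in *sup45-ts* and 340 in *SUP45*. Its mRNA stood at 226 and 213 FPKM in *sup45-ts*, against 277 and 334 FPKM in *SUP45*. Footprints and mRNA of *ATP18* thus differed in opposite directions per depth, and footprints per mRNA were 2.23 higher (2.02 to 2.43), against -0.19 at 25°C. *HTL1*, a subunit of the RSC chromatin remodeller (234 nt), had 327 and 273 footprints and a value of 1.92 (1.68 to 2.15). *RPS30B*, a protein of the small ribosomal subunit (189 nt), had 834 and 1330 footprints and a value of 1.79. Its near-identical copy *RPS30A* stood at 0.80, and the sum of both at 1.08. *PHO80*, the cyclin of phosphate signalling, and *ATG31*, an autophagy scaffold, stood at 1.90 and 1.85. At 25°C *HTL1* stood at 0.28, *RPS30B* at -0.33 and *PHO80* at -0.06.

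Further high values rest on thin or discordant data. *YGR137W*, outside the naming rule, had the highest value of all members, 3.84 (3.54 to 4.14), and was picked after its values were seen. It could not be placed in R64, so its overlap with other genes was not tested. *VMA10* (a subunit of the vacuolar ATPase) had a value of 2.33, but its mRNA stood at 74.4 and 7.69 FPKM in the 2 *sup45-ts* libraries, against 206 and 152 FPKM in *SUP45*. With 1 library left out it ran from 1.49 to 4.72. With its spliced and unspliced transcripts summed the value was 1.35.

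**Figure D3:**
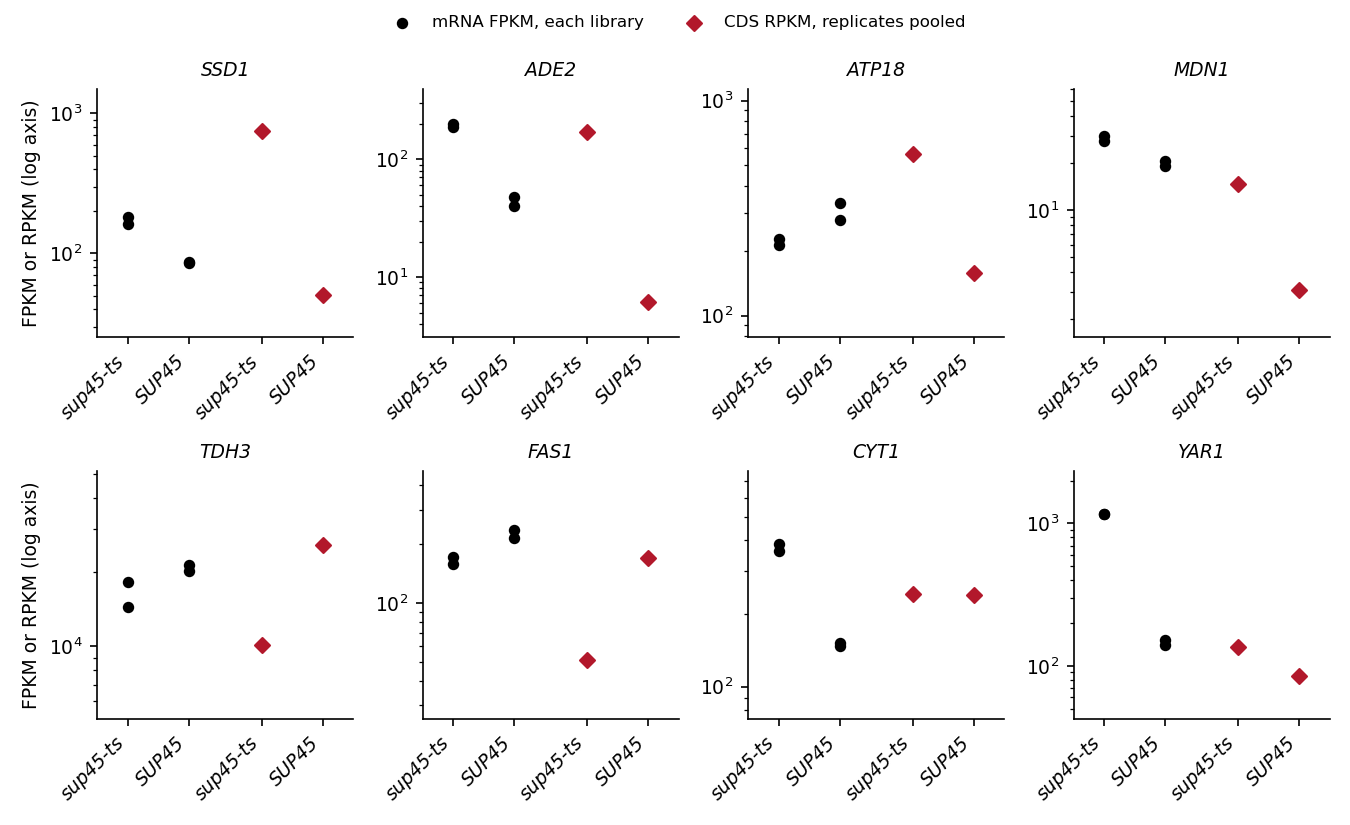
mRNA in each RNA-Seq library (black, FPKM) and CDS RPKM with replicates combined (red diamonds) at 37°C for 8 members, on log axes, with *sup45-ts* left of *SUP45* in each pair. *SSD1*, *ADE2*, *ATP18* and *MDN1* had more footprints per mRNA in *sup45-ts*, and *TDH3*, *FAS1*, *CYT1* and *YAR1* had fewer.

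Among the lowest were mRNAs that rose strongly while their footprints did not keep pace. *YAR1*, which chaperones the ribosomal protein Rps3, had 481 footprints in *sup45-ts* and 778 in *SUP45*, or CDS RPKM of 135 and 84.8. Its mRNA stood at 1165 and 1172 FPKM in *sup45-ts*, against 139 and 152 FPKM in *SUP45*. *YAR1* mRNA rose by 3.01 on the log2 scale (SE 0.10, adjusted p = 1.60e-08 from edgeR), and its footprints per mRNA were at -2.42 (-2.59 to -2.26). *YGR210C* had 1170 and 1239 footprints, with 1038 and 1218 FPKM against 94.97 and 97.02 FPKM, and a value of -2.36. *CUS1*, a protein of the U2 snRNP, had 202 and 363 footprints, with 198 and 166 FPKM against 28.8 and 29.3 FPKM, and a value of -2.22. At 25°C *YAR1* stood at 0.16, *YGR210C* at 0.17 and *CUS1* at 0.03.

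The genes next to these on the chromosome were listed from the R64 coordinates. *YGR210C* starts 503 bp from *ZPR1*, a chaperone of elongation factor eEF1A, on the other strand. *ZPR1* mRNA averaged 3216 FPKM in *sup45-ts* cells against 128 FPKM in *SUP45* cells, a 25.2-fold difference, with footprints per mRNA at -0.01. *YAR1* lies 859 bp from *HSP82*, which codes for Hsp90, on the other strand. *HSP82* mRNA averaged 9951 FPKM in *sup45-ts* cells against 6771 FPKM in *SUP45* cells. Neither neighbour of *CUS1* differed by 2-fold or more in mRNA. Whether transcripts of a neighbour enter these FPKM values was not tested.

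*SIT4*, a protein phosphatase, and *COT1*, a vacuolar zinc transporter, stood low without such a change in mRNA. *SIT4* had 209 footprints in *sup45-ts* and 1314 in *SUP45*, with 101 and 98.0 FPKM against 77.2 and 75.2 FPKM, and a value of -1.76 (-1.98 to -1.55). *COT1* had 269 and 1838 footprints, with 73.5 and 81.8 FPKM against 72.9 and 70.2 FPKM, and a value of -1.61. *CYT1*, cytochrome c1 of the respiratory chain, had CDS RPKM of 240 and 239. Its mRNA rose by 1.34 on the log2 scale (adjusted p = 3.58e-07 from edgeR), with 361 and 388 FPKM in *sup45-ts* against 147 and 151 FPKM in *SUP45*, so that its footprints per mRNA were at -1.41.

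Lower than *YAR1* were *ADH2* and *ANB1*, genes with near-identical copies, between which short footprints cannot be assigned with certainty. *ADH2* stood at -5.98 with 3822 footprints in *sup45-ts* and 33577 in *SUP45*, while its *SUP45* mRNA was only 2.00 and 2.09 FPKM. *ADH1*, the abundant copy, stood at -0.45, and the sum of *ADH1* and *ADH2* at -0.51. *ANB1* stood at -3.52 and its copy *HYP2* (both eIF5A) at -1.04, with relative CDS RPKM differences of -0.91 and -0.89. *PDC5* stood at -2.02 and *PDC6* at -2.20, against -0.47 for *PDC1*, the main pyruvate decarboxylase. Values of such copies are best read as sums. In CDS RPKM, however, *PDC6* differed by 0.55 and *PDC1* by -1.69 relative to the median. Their sum, at -0.47, follows *PDC1* and does not describe *PDC6*.

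In all 21 glycolytic and fermentation genes, the difference in footprints per mRNA between the strains was below that of the median member. Their median was -0.70 (95% interval over genes -0.92 to -0.47), against 0 over all members by construction, and -0.15 at 25°C. With near-identical copies summed, 16 values remained, all below the median member, with a median of -0.61 and 2 past 2-fold lower. No glycolytic gene was past 2-fold higher and 5 were past 2-fold lower, against 3.17% and 4.05% of all members. The mRNA of the list fell for 14, rose for 4 and did not pass the test for 3, against 44.9% lower and 35.5% higher over all members tested. *TDH3* (glyceraldehyde-3-phosphate dehydrogenase) had 62206 footprints in *sup45-ts* and 407233 in *SUP45*, with 14503 and 18230 FPKM against 21469 and 20221 FPKM. Its mRNA did not pass the test (log2 difference -0.34, adjusted p = 0.0816 from edgeR), and its footprints per mRNA were at -1.08, between -1.27 and -0.89 with 1 RNA-Seq library left out. *ENO2* (enolase) stood at -0.85, *PDC1* at -0.47 and *PFK2* (phosphofructokinase), the nearest to the median, at -0.11.

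The list held 6.88% of all CDS footprints in *sup45-ts* and 16.4% in *SUP45* at 37°C (14.7% and 14.1% at 25°C). Of the FPKM it held 5.91% and 6.60% in the *sup45-ts* libraries, against 11.3% and 10.1% in the *SUP45* libraries at 37°C. A share of footprint counts also depends on CDS length, while FPKM is divided by length, so each share compares between strains only.

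Lists of biosynthetic enzymes also had medians below 0. The 26 genes of ergosterol synthesis had a median of -0.49 (-0.63 to -0.22), with 20 below the median member. Their mRNA rose for 13 and fell for 7, against 35.5% and 44.9% of all members tested. *ERG13* and *ERG11* (HMG-CoA synthase and lanosterol demethylase) had CDS RPKM of 935 and 702 in *sup45-ts* against 935 and 667 in *SUP45*, while their mRNAs rose by 0.68 and 0.70 on the log2 scale. *ERG28* was the lowest at -1.42 and *ERG26* the highest at 0.67. Of 19 genes of purine synthesis 17 lay below the median member, with a median of -0.48 (-0.71 to -0.23), the lowest being *PRS1* (phosphoribosyl pyrophosphate synthetase) at -1.38. Amino acid synthesis had a median of -0.30 over 73 genes (-0.44 to -0.19). Of these, 8 were past 2-fold lower and none past 2-fold higher, against 4.05% and 3.17% of all members. *MET6* (methionine synthase) stood at -0.92 and *ILV5* at -0.54, whereas *SHM2* was at 0.01.

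Of 30 cell wall genes 29 lay below the median member, with a median of -0.41 (-0.53 to -0.33) and -0.03 at 25°C. *SED1*, a structural mannoprotein, had 27081 footprints in *sup45-ts* and 111870 in *SUP45*. Its mRNA stood at 990.2 and 999.6 FPKM in *sup45-ts* against 915 and 844 FPKM in *SUP45*, which did not pass the test (adjusted p = 0.367 from edgeR), and its footprints per mRNA were at -0.95. *UTH1* was the lowest at -1.38, and *ECM33* was the 1 gene above the median, at 0.28. The 28 genes of ER chaperones and translocon had a median of -0.23 (-0.54 to 0.07), with *PDI1* lowest at -1.09. Their mRNA fell for 25 and rose for 1, against 44.9% and 35.5% of all members. *KAR2* (the Hsp70 of the ER) was an exception in mRNA, with 4235 and 4187 FPKM in *sup45-ts* libraries against 4442 and 4200.4 FPKM in those of *SUP45*, and stood at -0.47 in footprints per mRNA.

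**Figure D4:**
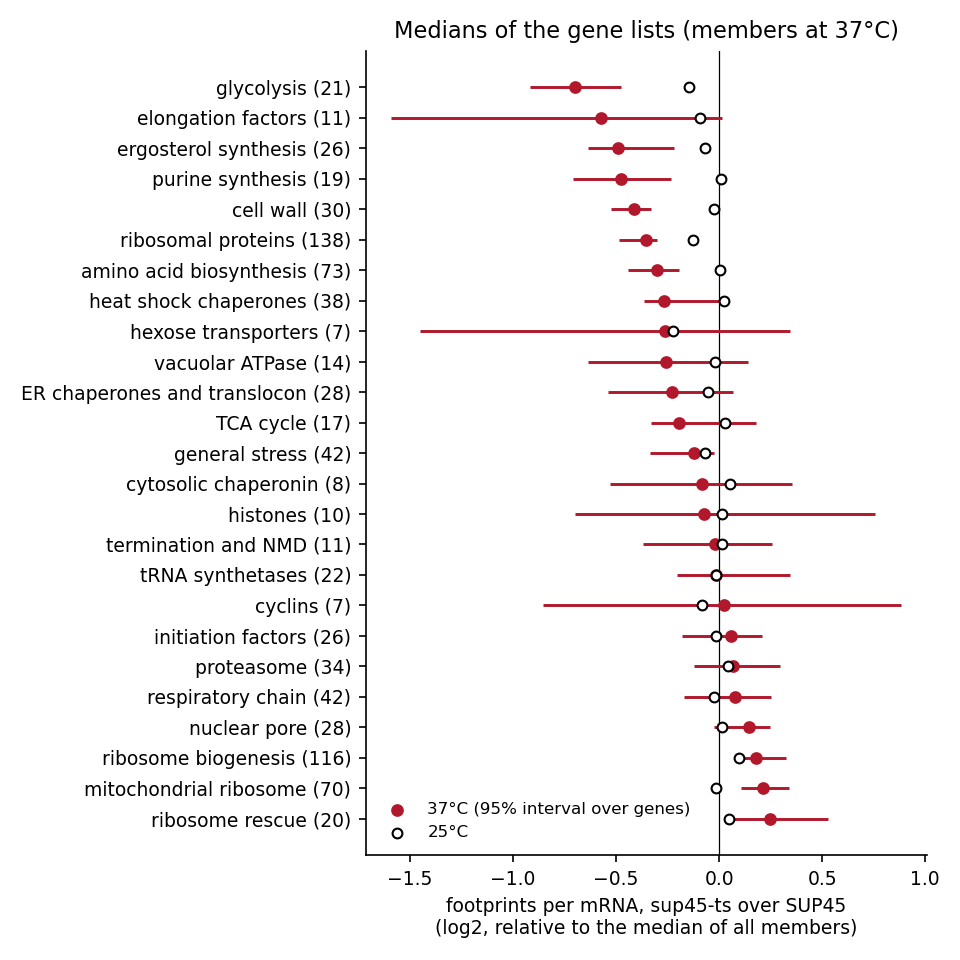
Median log2 difference in footprints per mRNA between *sup45-ts* and *SUP45*, relative to all members, for gene lists with at least 6 members (number in brackets). Red points are 37°C with the 95% interval of the median over genes, and open points 25°C. Glycolysis is lowest (-0.70) and ribosome rescue highest (0.25), and the medians at 25°C lie between -0.22 and 0.10.

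The 138 ribosomal protein genes had a median of -0.36 (-0.49 to -0.30), with 109 below the median member. Of the 138, 3 were past 2-fold higher and 8 past 2-fold lower, against 3.17% and 4.05% of all members. Summed over paralogs, 79 proteins had a median of -0.39, with 12 above the median member, 2 past 2-fold higher and 3 past 2-fold lower. Their mRNA rose for 36, fell for 63 and did not pass the test for 39, against 35.5% higher and 44.9% lower over all members tested, which is near the share lower in the list. *RPL3* had 10478 footprints in *sup45-ts* and 23547 in *SUP45*, with 1777 and 1980.4 FPKM against 1133 and 1059 FPKM, and stood at -0.67. *RPP0*, the base of the ribosomal stalk, stood at -0.05, *RPL28* at 0.01 and *RPS0A* at -0.53, and *RPS9A* was lowest at -1.34. The list held 3.36% of CDS footprints in *sup45-ts* and 3.90% in *SUP45* at 37°C, against 21.6% and 24.3% at 25°C, so that the share was low in both strains after the shift.

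Ribosome biogenesis factors, which assemble ribosomes in the nucleolus, differed in mRNA more than in load. Their mRNA fell for 106 of 116 and rose for 3 (44.9% and 35.5% over all members tested), while their footprints per mRNA had a median of 0.18 (0.07 to 0.33). *MDN1*, the giant ATPase that releases assembly factors, was highest at 1.65. *NOP58* and *NOP1*, core proteins of box C/D snoRNPs, stood at -0.33 and -0.18, and *RRP14* was lowest at -1.27. Mitochondrial ribosomal proteins were similar, with a median of 0.21 (0.11 to 0.34) over 70 genes and mRNA lower for 59 and higher for 2, beside the same shares over all members. *MRPL33* (258 nt) was highest at 1.60, from 132 footprints in *sup45-ts* and 175 in *SUP45*.

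Elongation factors had a median of -0.57 over 11 genes, with an interval from -1.59 to 0.01. Of the 11, 3 were past 2-fold lower (2 of 8 with copies summed), against 4.05% of all members. *TEF1* and *TEF2*, identical copies of eEF1A, stood at -0.57 and -0.46, and their mRNA fell by 0.64 and 0.75 on the log2 scale. *CAM1* was the highest at 0.30. The 26 initiation factors stood at a median of 0.06 (-0.18 to 0.21). None of the 26 was past 2-fold either way, against 3.17% higher and 4.05% lower over all members. *CDC33*, the cap-binding protein eIF4E, was highest at 0.53, and *GCN3*, a subunit of eIF2B, lowest at -0.97. *PAB1*, the poly(A)-binding protein, stood at -0.93 (CDS RPKM 185 in *sup45-ts* and 333 in *SUP45*), with an mRNA difference of 0.00.

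Genes of termination were near the median. *SUP45* itself had 1710 footprints in *sup45-ts* and 5417 in wild-type cells, with 169 and 161 FPKM against 259 and 277 FPKM, and footprints per mRNA at 0.31. *SUP35* stood at 0.17 and *RLI1* at 0.14. The mRNAs of *SUP45*, *SUP35* and *RLI1* fell by 0.69, 0.71 and 0.69 on the log2 scale, each with an adjusted p of at most 3.27e-05 from edgeR. The 20 genes of ribosome rescue and quality control had a median of 0.25 (0.03 to 0.53), with 15 above the median member. Their median CDS length was 2205 nt, and all members of 2400 nt and over had a median of 0.22. The part of CDS length in the list was not tested. None of the 20 was past 2-fold, against 3.17% higher and 4.05% lower over all members. *SLH1*, a helicase that takes apart collided ribosomes, was highest at 0.95, and *GCN1* (8016 nt), which senses collisions, stood at 0.68. *MBF1*, which guards the reading frame on collided ribosomes, had mRNA at 5482 and 5897 FPKM in *sup45-ts* against 945 and 1004 FPKM in *SUP45*, a rise of 2.56 on the log2 scale, with footprints per mRNA at 0.17.

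Heat shock chaperones held 23.9% of CDS footprints in *sup45-ts* and 15.6% in *SUP45* at 37°C (3.29% and 3.17% at 25°C). Of the FPKM they held 15.6% and 15.1% in *sup45-ts* libraries and 11.5% and 11.2% in *SUP45* libraries. FPKM is divided by length and the footprint counts are not, so these shares compare between strains only. Per mRNA they had a median of -0.27 over 38 genes (-0.37 to 0.03), and 2 were past 2-fold lower, against 4.05% of all members. *HSP104*, the disaggregase, had 227908 footprints in *sup45-ts* and 208941 in *SUP45*, with 11585 and 11127 FPKM against 3361 and 3385 FPKM. *HSP104* mRNA rose by 1.76 on the log2 scale (adjusted p = 9.99e-07 from edgeR) and its footprints per mRNA were at -0.35. *SSA1* and *SSA4*, cytosolic Hsp70s, stood at -0.65 and -0.37. *HSP30*, of the plasma membrane, had the largest rise in mRNA of the list (4.96) and its lowest value per mRNA (-1.02), and the small heat shock protein *HSP26* its highest (0.84).

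Over all members tested, mRNA fell for 44.9% and rose for 35.5%, and the lists here are set beside those shares. The mRNA of 33 of 34 proteasome genes fell, and that of 1 rose. Their footprints per mRNA had a median of 0.07 (-0.12 to 0.30). Of the 34, 2 were past 2-fold higher, against 3.17% of all members, and 1 of them was *SEM1* (267 nt) at 1.18. All 8 mRNAs of the cytosolic chaperonin, which folds actin and tubulin, fell as well, with a median of -0.08 in footprints per mRNA. Histones had a median of -0.07 over 10 genes that ran from -1.47 (*HHT1*) to 1.39 (*HTB1*), and mRNA that rose for 8 and fell for 2. *HHT1* and *HHT2* code for the same protein, and their sum stood at -0.42. The remaining lists had medians between -0.26 and 0.15. These were hexose transporters (-0.26, 7 genes), vacuolar ATPase (-0.26, 14), the TCA cycle (-0.19, 17), general stress genes (-0.12, 42), termination and NMD (-0.02, 11), tRNA synthetases (-0.01, 22), cyclins (0.02, 7), respiratory chain (0.08, 42) and nuclear pore (0.15, 28). In the list of 5 genes known for upstream open reading frames, *GCN4* stood at -0.21 and *YAP1* at -0.65. *CPA1* was lowest at -0.88 and *CAD1* highest at 0.83.

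Footprints per mRNA were higher in *sup45-ts* at both ends of the range of CDS length. The 99 members under 300 nt had a median of 0.44 (0.29 to 0.59). Of these, 14 were past 2-fold higher (14.1%) and 1 past 2-fold lower (1.01%), against 3.17% and 4.05% of all members. The medians were 0.04 from 300 to under 600 nt (513 members), -0.09 from there to under 1200 nt (1369) and -0.03 from there to under 2400 nt (1737). The 800 members of 2400 nt and over had a median of 0.22 (0.18 to 0.27), with 44 past 2-fold higher (5.5%) and 17 past 2-fold lower (2.1%). At 25°C the medians in the same order of length were -0.09, -0.04, -0.01, 0.00 and 0.04. Because the course is not monotone, ρ between CDS length and footprints per mRNA was only 0.106.

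In the shortest group, the 19 ribosomal proteins had a median of 0.02 and the other 80 members 0.47, with 61 of the 80 above the median member. Among the 61 were *ATP18*, *HTL1*, *MRPL33* and *SEM1*, named above. Also among them were *ATP15* of the ATP synthase at 1.35, *SUS1* of the SAGA complex at 1.29 and *TIM10* of mitochondrial import at 1.07. These last were picked after their values were seen. Without ribosomal proteins the median from 300 to under 600 nt was 0.14. The deposited counts leave out the first 15 and the last 33 nt of every CDS, which is a larger part of a short CDS than of a long one. CDS RPKM divides by the length that is left.

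At the other end, 31 of the 37 members with a CDS of 6000 nt or more, a limit set after the values were seen, lay above the median member, with a median of 0.69 (0.52 to 0.84). *MDN1*, the longest at 14730 nt, had 1398 footprints in *sup45-ts* and 748 in *SUP45*, with 30.0 and 28.0 FPKM against 20.8 and 19.4 FPKM. *DYN1*, the dynein heavy chain (12276 nt), had 595 and 738 footprints, with 21.6 and 17.3 FPKM against 25.0 and 23.9 FPKM, and a value of 1.30. *TRA1*, the activator-binding subunit of SAGA and NuA4 (11232 nt), stood at 1.30, the checkpoint kinase *MEC1* at 1.32 and *BPH1* at 1.38. The longest genes at the low end were metabolic enzymes. *FAS1* (fatty acid synthase, 6153 nt) had 2012 footprints in *sup45-ts* and 17274 in *SUP45* and stood at -1.37, *ACC1* (acetyl-CoA carboxylase) at -1.32 and *URA2* (pyrimidine synthesis) at -0.84.

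mRNA abundance went along with CDS length. Over the members ρ between footprints per mRNA and mean FPKM over both strains was -0.293. FPKM is also the denominator of footprints per mRNA, so part of such a ρ can come from its error. In 3 classes of equal size by mRNA level, the median was 0.18 for the lowest, 0.01 for the middle and -0.18 for the highest, and -0.17 for the highest without ribosomal proteins. Within the members of 2400 nt and over the 3 medians were 0.35, 0.15 and -0.12, and within those from 600 to under 1200 nt 0.11, -0.05 and -0.24. Of the 99 members under 300 nt, 86 were in the highest class and still had a median of 0.42. Gene lists differed in mRNA level too. Median FPKM in *SUP45* at 37°C was 2218 for glycolysis and 286 for ergosterol synthesis, which stood low. It was 61 for ribosome biogenesis and 56.8 for ribosome rescue, which stood high. Purine synthesis (120) stood low at a lower level than the proteasome (423), which was near the median. The part of mRNA level in the list medians was not tested.

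**Figure D5:**
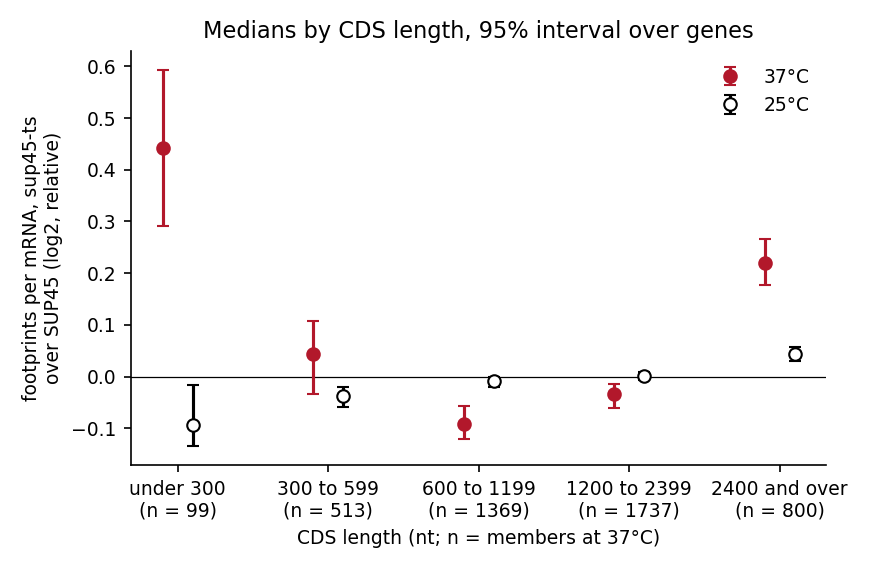
Median log2 difference in footprints per mRNA between *sup45-ts* and *SUP45* by CDS length, with the 95% interval of the median over genes, at 37°C (red) and 25°C (open). At 37°C the shortest (0.44) and the longest group (0.22) lie above 0, while the medians at 25°C stay between -0.09 and 0.04.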

How the data were processed

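Members and gene lists were chosen with earlier results of these data known, and no sequences or genome were used. Footprint reads were trimmed by the authors, who discarded those from non-coding RNAs, kept 1 read per barcode and position, aligned the rest to a transcriptome built on R64 with bowtie, keeping reads with several equally good positions, assigned P-sites to footprints of set lengths and combined the replicates. The deposited CDS counts are of frame 0 and leave out the first 15 and the last 33 nt. The deposited CDS RPKM divides them by the length that is left and by the CDS and 3’-UTR total of the same strain and temperature. Recomputation matched it within 4.8e-07. For RNA-Seq (TruSeq Stranded kit) the deposited expected counts and FPKM are RSEM’s estimates per transcript, made by the authors without other pre-processing. The per-replicate RSEM files of ribosome profiling were not used for translation, because their FPKM was negatively correlated with the CDS RPKM of the same transcripts (ρ -0.117 to -0.0761 over 4526 members in the 8 libraries).

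Conditions and replicates came from the sample labels. Rounded expected counts went into the quasi-likelihood test of edgeR (TMM, filterByExpr, all 8 RNA-Seq libraries, 6767 transcripts, Benjamini-Hochberg adjustment). On simulated counts for this comparison (6734 transcripts, 200 changed) 92% of 2-fold and 100% of 4-fold changes were recovered, and 3.03% of calls were false. Far fewer transcripts were changed there than were called in the data, so the simulation does not give the share of false calls here. Of all transcripts tested, 2674 (39.5%) were higher and 2664 (39.4%) lower in *sup45-ts*. Footprint values have no test. Their intervals are exact binomial and cover counting error only, and intervals of medians are over genes, which are not replicates. Coordinates were matched for 5901 transcripts. Members not tested by edgeR numbered 3.

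Named genes are the 6 highest and lowest in footprints per mRNA (at least 200 footprints and 10 FPKM), the 3 members with most footprints and the highest and lowest of each list, the 5 largest differences in CDS RPKM each way, the discordant ones and those the paper names. Alternatives were DESeq2, filters, scaling, the mRNA measure, a replicate block, overlaps, each library left out and, added later, near-identical copies summed. Replicate numbers did not pair the samples. Mating type markers and marker alleles were checked. No identifier of the mitochondrially encoded list is in the tables used here.

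Tools were edgeR 4.0.16, limma 3.58.1 and DESeq2 1.42.0 under R 4.3.3, and pandas 2.3.3, numpy 2.4.6, scipy 1.17.1 and matplotlib 3.10.9 under Python 3.11.15.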

Additional observations from a re-analysis of the deposited data

Results flagged for a closer look

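The mRNA difference between the strains itself differed between 37°C and 25°C for 3310 of 4523 members (interaction term in edgeR’s quasi-likelihood test, adjusted p under 0.05), and 3409 had an unadjusted p under 0.05. For footprints no such test was made, as replicates were combined.

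In the RSEM files of ribosome profiling, which were not used above, 5473 and 5442 of 6952 transcripts had an FPKM of at least 1 in the *sup45-ts* libraries of the 37°C groups, against 1758 and 1752 in the *SUP45* libraries. These values ran against the CDS RPKM of the same transcripts in every library.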

How the results depend on the processing

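Replicate numbers did not pair the samples: correlations of same-numbered deviations ran from -0.17 to 0.23. With the replicate block, 1621 members were higher and 2056 lower in mRNA, and over all transcripts 2696 and 2696. Leaving out 1 library at a time, 1425 to 1497 were higher and 1874 to 1992 lower, and DESeq2 gave 1541 and 2102. Footprints per mRNA past 2-fold ranged from 100 to 177 members higher and 131 to 221 lower, both set by the footprint minimum. The uncentred median of 0.09 was 0.28 when scaled to CDS footprints alone and 0.061 to 0.11 with 1 library left out. The median from 300 to under 600 nt was 0.14 without ribosomal proteins. That of ribosomal proteins ran from -0.45 to -0.29 with 1 library left out, the last without replicate 2 of *sup45-ts*. At 25°C, 3 members were higher and 2 lower with a minimum of 50 footprints, and 0 were higher with 200. Of the summary values, 301 moved by less than their limits, but medians close to 0 changed sign in 7 repeats over 5 results. With a minimum of 200 footprints these were 300 to under 600 nt (-0.03), termination and NMD (0.04) and histones (0.06). Without replicate 2 of *SUP45* they were termination and NMD (0.04) and tRNA synthetases (0.04). Cyclins stood at -0.18 without replicate 1 and at -0.01 without replicate 2 of *sup45-ts*. No direction is read from these 5 medians. For single genes 28 mRNA calls were lost and 16 gained over 1350 repeats, and the mRNA call of *VMA10* was lost with DESeq2 and without replicate 1 of *SUP45*. Depth limits the footprints most in *sup45-ts* at 37°C, and the spread between cultures in footprints is unknown.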

Other observations

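Both strains are *MATa*. Of the a-cell genes, *STE2* (the α-factor receptor), *STE6* (the a-factor exporter) and *BAR1* (the protease that degrades α-factor) were members. The mRNA of all 3 was lower in *sup45-ts* at 37°C, with log2 differences of -0.36, -1.11 and -1.57 (adjusted p at most 0.0111 from edgeR). *MFA1*, *MFA2* and *AGA2* were not members. The mRNA of *MFA1* and *MFA2* was lower too (-1.31 and -1.12, adjusted p at most 1.01e-05 from edgeR). That of *AGA2* did not pass the test (0.02, adjusted p = 0.831 from edgeR). *STE2* lost its call without replicate 2 of *sup45-ts*. Of the α-cell genes, *STE3* (the a-factor receptor) had 152 CDS footprints in *sup45-ts* and 69 in *SUP45*, with 20.7 and 19.2 FPKM in *sup45-ts* libraries against 4.06 and 4.87 FPKM in *SUP45* libraries at 37°C. At 25°C *STE3* stood at 0.46 and 0.45 FPKM in *sup45-ts* and 0.42 and 0.49 FPKM in *SUP45*. The mRNA of *SAG1*, also an α-cell gene, differed less at 37°C, with a log2 difference of 0.37 (adjusted p = 0.00373 from edgeR).

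Members with an intron, 239 in all, had a median of -0.11 in footprints per mRNA, and 0.13 over the 137 that are not ribosomal proteins. Among ribosomal proteins the median was -0.33 for 102 with an intron and -0.43 for 36 without.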
